A study of Rattus norvegicus with 9 samples.

Results

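The retinoic acid genes described here are 9 genes of the pathway that makes, carries, reads and removes retinoic acid: the synthesizing enzymes Aldh1a1, Aldh1a2 and Aldh1a3, the nuclear receptors Rara, Rarb and Rarg, the binding proteins Crabp1 and Crabp2, and the degrading enzyme Cyp26b1. They were picked by name, and each was found under that symbol among the 17337 genes of the deposited count table. RNA was sequenced from 9 cultures of heart fibroblasts of Sprague Dawley rats, with 3 libraries from fetuses of embryonic day 18, 3 from neonates of postnatal day 1 and 3 from adults of 7 weeks. Every culture was of passage 0 and was grown until confluent in DMEM containing fetal bovine serum, ascorbic acid and antibiotics, and the labels name no treatment with retinoic acid, no transgene and no mutation. Nothing in the labels says that the cells were sorted or that the 3 libraries of an age came from separate animals, so the tests measure the spread between these libraries, which may be technical.

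Retinoic acid is made from vitamin A. Retinol is oxidized reversibly to retinaldehyde, which the Aldh1a enzymes oxidize irreversibly to retinoic acid. Inside the cell it is carried by the Crabp proteins and Fabp5, it binds receptors of the RAR group that sit with an RXR partner on response elements in DNA, and Cyp26 enzymes hydroxylate it for removal. In the embryonic heart Aldh1a2 of the epicardium, the outer cell layer from which many cardiac fibroblasts descend, is a known source of retinoic acid.

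Library depth ran from 13392825 to 22850491 assigned counts, and the adult libraries were the shallowest. Of 12 fibroblast markers, 11 stood at 6.90 CPM (counts per 1000000 assigned counts, scaled by TMM) or more in every library, whereas Col1a2 was at 0.976 CPM or less in all of them. The fibroblast markers summed to 79286, 77793 and 37281 CPM in fetal replicates 1, 2 and 3, to between 96040 and 103341 CPM in neonatal libraries and to between 40568 and 52209 CPM in adult ones. Fetal replicate 3 stood apart. Its 10 lung epithelial markers summed to 234 CPM against 3.78 and 4.41 CPM in the other fetal libraries. Cldn18, Epcam and Cdh1 were at 58.4, 46.9 and 113 CPM in it, and Nkx2-1 at 9.82 CPM against 0.108 and 0.132 CPM. The surfactant genes Sftpc and Sftpd were at 0.743 and 0.265 CPM in it and at 0 in fetal replicates 1 and 2, while Sftpb and Sftpa1 had 0 counts in every library. Among the fetal libraries 7 of the 10 markers were highest in replicate 3, and the other 3 (Sftpb, Sftpa1 and Napsa) had 0 counts in all of them. Cardiomyocyte markers (13 genes) summed to between 5408 and 11785 CPM in fetal and neonatal and 306 to 322 CPM in adult libraries. Of the adult sums Tnnt2 alone held 303, 310 and 316 CPM in replicates 1, 2 and 3, and each other marker at most 1.65 CPM. Macrophage markers, 12 of 12 higher in every adult library, summed to 4181 to 5844 CPM there against at most 183 CPM elsewhere. Whether these other cells contributed to the differences below was not tested, and in such bulk RNA fewer cells of a type cannot be told apart from less RNA per cell.

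All 9 genes passed the filter on low counts. Between neonatal and fetal cultures edgeR called 6 of 9 (2 higher, 4 lower) at an adjusted p under 0.05, beside 36.3% of all genes tested (18.3% higher, 18% lower). Between adult and fetal cultures it called 6 of 9 (3 higher, 3 lower) beside 70.5% of all genes (34.9% higher, 35.5% lower), and between adult and neonatal cultures 3 of 9, all higher, beside 63.5% (31.6% higher, 31.8% lower). In the last comparison the share of the 9 genes called was thus below that of all genes, and in the adult against fetal one it was close to it. The median size of the log2 difference was 0.75, 1.03 and 1.09 for the 9 genes and 0.29, 0.63 and 0.52 for all genes tested. Without fetal replicate 3 the calls numbered 7, 7 and 6, beside 40.6%, 74.8% and 72.2% of all genes.

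**Figure D1:**
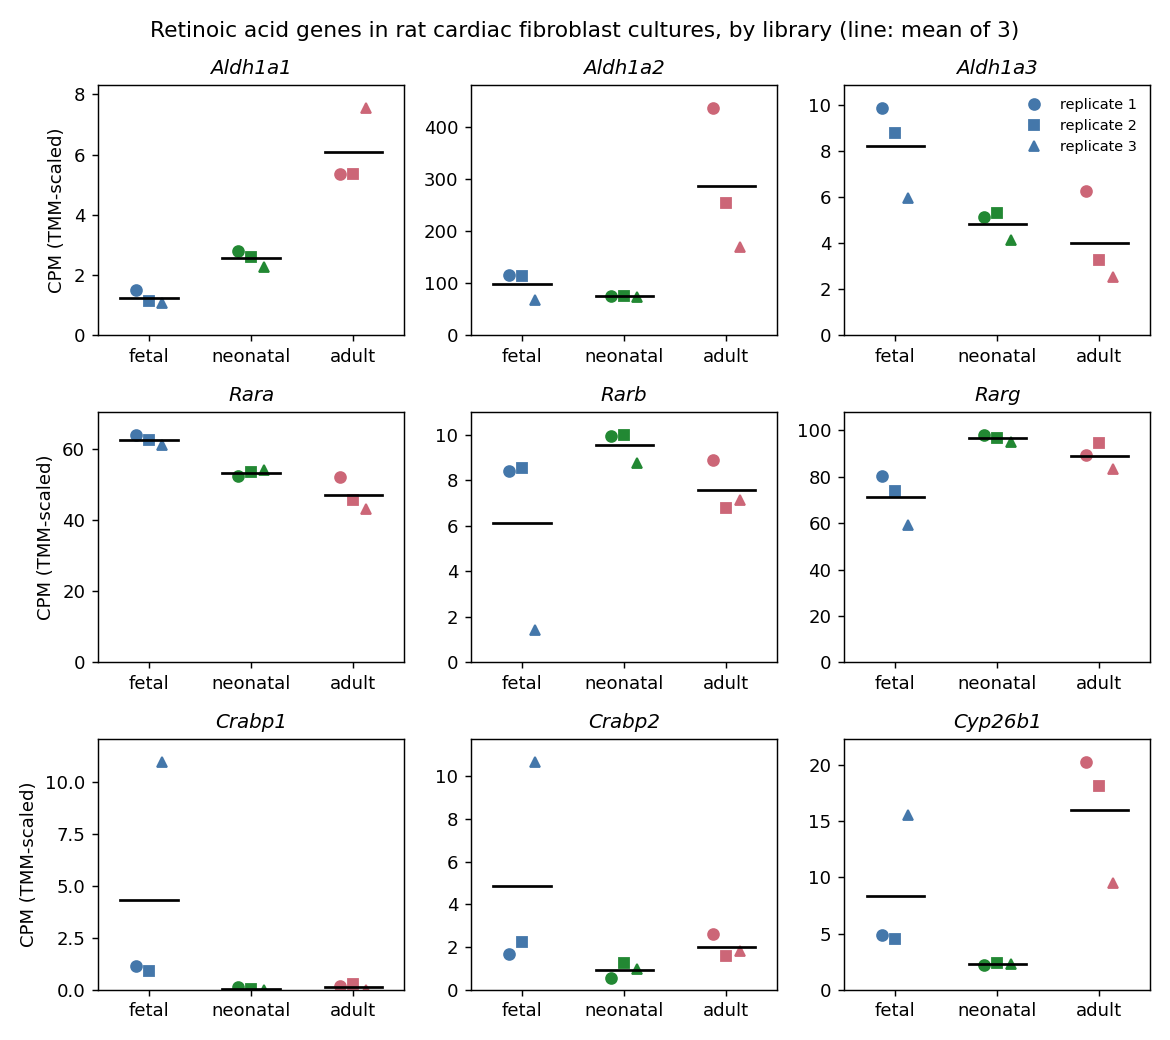
CPM of the 9 retinoic acid genes in each library, one panel a gene, with the age on the horizontal axis, the replicate number as the symbol and a line at the mean of 3. Aldh1a1 rises at each age, Aldh1a2 is highest in the 3 adult libraries, and fetal replicate 3 (blue triangle) lies far from the other fetal libraries for Rarb, Crabp1, Crabp2 and Cyp26b1.

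The synthesizing enzymes were led by Aldh1a2 at every age, and adult cultures held more of it. Aldh1a2 (rn6 chromosome 8, 77640234 to 77719488, 14 exon blocks) stood at 115, 114 and 67.8 CPM in fetal replicates 1, 2 and 3, at 75.9, 74.8 and 73.8 CPM in the neonatal libraries, and at 437, 254 and 169 CPM in adult replicates 1, 2 and 3. Every adult library exceeded every younger one, and the fetal and neonatal libraries overlapped. It rose 2.89-fold from fetal to adult cultures (log2 1.53, SE 0.33, edgeR adjusted p = 0.0026) and 3.83-fold from neonatal to adult cultures (log2 1.94, SE 0.33, edgeR adjusted p = 0.000903). The difference between neonatal and fetal cultures did not pass (log2 -0.40, SE 0.32, edgeR adjusted p = 0.353).

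The adult libraries differed among themselves by 2.59-fold in Aldh1a2. Of the 12 fibroblast markers 5 were highest and 7 lowest in adult replicate 1 among the adult libraries, and their sum was lowest there (40568, 48365 and 52209 CPM in replicates 1, 2 and 3). Singled out after their values were seen, Pdgfra (669, 383 and 245 CPM) followed the order of Aldh1a2 over these libraries, whereas Col1a1 (11886, 15686 and 17308 CPM) and Postn (374, 873 and 998 CPM) had the opposite order. Macrophage markers were lowest in adult replicate 1 (4181, 5102 and 5844 CPM in replicates 1, 2 and 3). Dendritic cell markers, whose defining Flt3 had at most 0.0722 CPM, summed to 137, 107 and 98.7 CPM. Of this sum Cd83 alone held 122, 95.2 and 87.9 CPM, and each other marker at most 7.50 CPM in any adult library. The 8 epicardial or mesothelial markers in the table summed to between 41.6 and 59.4 CPM in the adult libraries, below the 74.2 to 247 CPM of the younger ones, although Wt1 among them was at 20.3, 15.4 and 9.66 CPM in adult and 8.58 to 10.7 CPM in younger libraries.

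Aldh1a1 (chromosome 1, 238222689 to 238264381) was the scarcest of the 3 enzymes in fetal cultures and increased at each age. It was at 1.51, 1.15 and 1.06 CPM in the fetal, 2.81, 2.60 and 2.27 CPM in the neonatal and 5.36, 5.34 and 7.56 CPM in the adult libraries, with no overlap between any pair of ages. It rose 2.06-fold from fetal to neonatal (log2 1.05, SE 0.25, edgeR adjusted p = 0.0105) and 2.37-fold from neonatal to adult cultures (log2 1.25, SE 0.23, edgeR adjusted p = 0.00111), and 4.90-fold over the whole span (log2 2.29, SE 0.24, edgeR adjusted p = 2.44e-05). These calls held in each alternative that was run. Aldh1a7, a closely related rodent gene on the same chromosome that is no member of the set, stood at 0.196 ± 0.124, 2.02 ± 0.295 and 5.43 ± 2.06 CPM at the 3 ages (SD, n = 3). The levels of both genes are uncertain, because the counting may have split or dropped reads that fit either of them.

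Aldh1a3 (chromosome 1, 127302920 to 127337828) went the other way. Its level was 9.88, 8.77 and 5.94 CPM in the fetal, 5.12, 5.30 and 4.14 CPM in the neonatal and 6.27, 3.25 and 2.55 CPM in the adult libraries, where adult replicate 1 lay above fetal replicate 3. It fell 2.04-fold from fetal to adult cultures (log2 -1.03, SE 0.33, edgeR adjusted p = 0.0178). Leaving out fetal replicate 1, adult replicate 2 or adult replicate 3 ended that call, with an adjusted p of 0.0556, 0.0679 and 0.0601, within 0.00132 to 0.0679 over its alternatives. Between neonatal and fetal cultures the difference did not pass with all libraries (log2 -0.75, SE 0.32, edgeR adjusted p = 0.0902) but passed without fetal replicate 3 (log2 -0.93, adjusted p 0.022), without adult replicate 1 (0.029), with total counts as the scaling (0.0339) and with only the 2 ages in the fit (0.0366), within 0.022 to 0.239. Between adult and neonatal cultures it was log2 -0.28 (edgeR adjusted p = 0.488), and without adult replicate 1 it was -0.75 (adjusted p 0.0416, within 0.0416 to 0.934).

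Divided by exon length, so that genes can be compared, the 3 enzymes together stood at 58.3, 57.2 and 34.6 CPM per 1000 bases of exon in fetal, 38.5, 38.0 and 36.7 in neonatal and 201, 118 and 80.4 in adult libraries. Aldh1a2 made up 88.1% ± 0.899 of this sum in fetal, 88.4% ± 1.12 in neonatal and 95.4% ± 1.72 in adult cultures (SD, n = 3). The share of Aldh1a3 was 10.7% ± 0.654, 8.35% ± 0.891 and 1.96% ± 0.144, and that of Aldh1a1 1.22% ± 0.255, 3.24% ± 0.268 and 2.65% ± 1.67. The synthesizing transcripts were thus mostly Aldh1a2 at all 3 ages.

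The 250 bases upstream of the annotated start of each enzyme gene are shown because these 3 genes moved in different directions between fetal and adult cultures (RefSeq windows, assembly GRCr8: Aldh1a1 chr1:227537370-227537619 on the plus strand, Aldh1a2 chr8:80758391-80758640 on the plus strand, Aldh1a3 chr1:129427644-129427893 on the minus strand). Capitals mark the octamer ATGCAAAT, which was searched on both strands and was chosen after the values and windows had been seen.
Aldh1a1: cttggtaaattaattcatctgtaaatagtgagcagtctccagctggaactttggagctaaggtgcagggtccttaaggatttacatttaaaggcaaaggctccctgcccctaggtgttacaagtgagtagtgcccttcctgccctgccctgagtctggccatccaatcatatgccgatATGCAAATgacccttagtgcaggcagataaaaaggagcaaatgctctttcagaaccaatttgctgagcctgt
Aldh1a2: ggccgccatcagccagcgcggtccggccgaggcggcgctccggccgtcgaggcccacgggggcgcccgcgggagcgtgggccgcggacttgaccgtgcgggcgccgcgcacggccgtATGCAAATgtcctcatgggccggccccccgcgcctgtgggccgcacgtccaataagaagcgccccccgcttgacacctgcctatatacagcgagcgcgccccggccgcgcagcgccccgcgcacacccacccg
Aldh1a3: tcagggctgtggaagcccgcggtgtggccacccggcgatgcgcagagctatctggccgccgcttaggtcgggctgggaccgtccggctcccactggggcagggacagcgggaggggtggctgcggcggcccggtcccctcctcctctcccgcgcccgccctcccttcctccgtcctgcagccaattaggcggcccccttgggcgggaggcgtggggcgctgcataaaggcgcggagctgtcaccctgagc
The octamer begins 72 bases before the start of Aldh1a1 and 133 bases before that of Aldh1a2, and 1.56% of 33469 such windows hold it. Among the 9 genes the octamer was found in these 2 windows. CCAAT, which was also searched on both strands, was in all 3 windows. It occurred 2 times for Aldh1a1, 1 time for Aldh1a2 and 1 time for Aldh1a3, and 34% of the 33469 windows hold it. The windows differ in base composition, with 46.4% G and C for Aldh1a1, 77.2% for Aldh1a2 and 73.6% for Aldh1a3. A match of letters is a description and shows no binding.

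**Figure D2:**
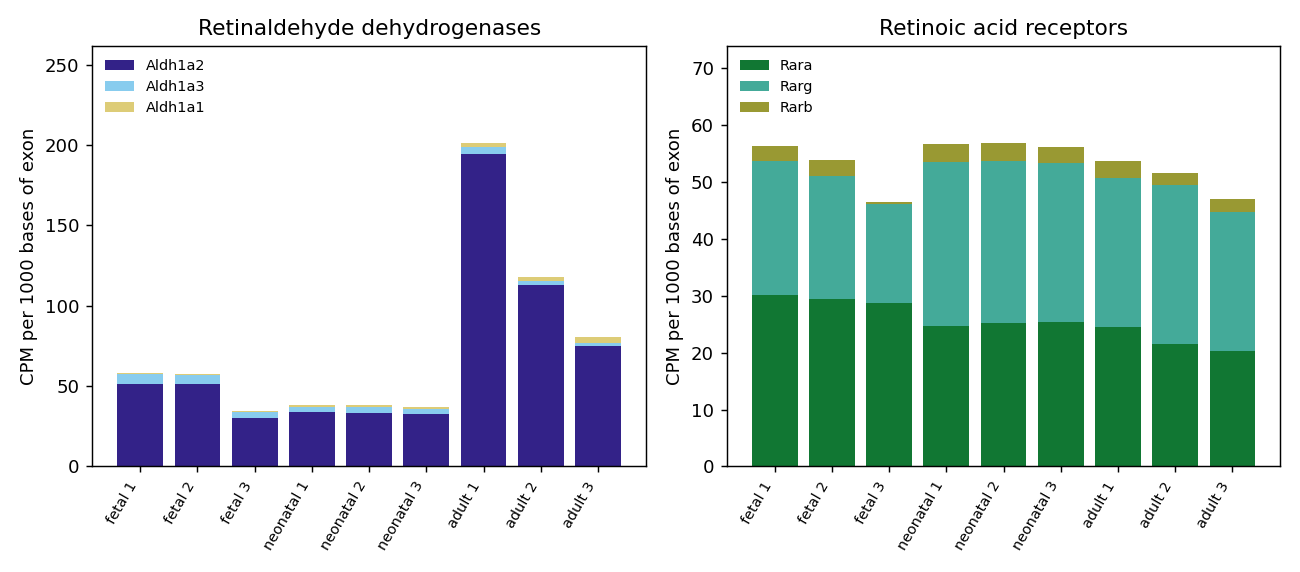
Stacked levels in CPM per 1000 bases of exon (vertical axes from 0) in each library, for the 3 retinaldehyde dehydrogenases (left) and the 3 retinoic acid receptors (right). Aldh1a2 fills most of the left bars and is highest in adult replicate 1, while the receptor sum stays between 46.6 and 56.9.

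The receptors were mostly Rara and Rarg, and the order of these 2 differed between fetal and later cultures. Their summed level per 1000 bases of exon was 52.3 ± 5.13 in fetal, 56.6 ± 0.380 in neonatal and 50.8 ± 3.35 in adult cultures (SD, n = 3). Rara made up 56.5% ± 4.53, 44.3% ± 0.894 and 43.5% ± 1.97 of it, and Rarg 39.9% ± 2.31, 50.2% ± 0.588 and 51.7% (49.1% to 54.1% over the 3 adult libraries). In each fetal library Rara was thus above Rarg, and in each neonatal and adult library Rarg was above Rara.

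Rara (chromosome 10, 86870530 to 86883434), the most widely expressed receptor of the group, stood at 63.9, 62.4 and 61.0 CPM in fetal, 52.4, 53.5 and 54.0 CPM in neonatal and 51.9, 45.7 and 43.1 CPM in adult libraries. The ages did not overlap. It fell 1.33-fold from fetal to adult cultures (log2 -0.41, SE 0.08, edgeR adjusted p = 0.000897). The fall of 1.17-fold from fetal to neonatal cultures (log2 -0.23, SE 0.08, edgeR adjusted p = 0.0398) was lost in 8 of 15 alternatives. Among them were the fits without fetal replicate 1 or 2 (adjusted p 0.0878 and 0.0793), neonatal replicate 1, 2 or 3 (0.125, 0.106 and 0.104) or adult replicate 2 (0.0604) and the fit without the filter (0.0574), within 0.0043 to 0.125. Between adult and neonatal cultures the difference was log2 -0.18 (edgeR adjusted p = 0.0594), and it passed without fetal replicate 3 (0.0309), without adult replicate 1 (0.00818), without the filter (0.0449) and with only the 2 ages in the fit (0.0421), within 0.00818 to 0.199.

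Rarg (chromosome 7, 143840739 to 143863206), a receptor known from skin and skeletal development, was at 80.2, 74.0 and 59.0 CPM in fetal, 98.0, 96.6 and 94.8 CPM in neonatal and 89.4, 94.7 and 83.2 CPM in adult libraries. It was lower in every fetal library than in every other one. From fetal cultures it rose 1.36-fold to neonatal (log2 0.44, SE 0.11, edgeR adjusted p = 0.0113) and 1.25-fold to adult cultures (log2 0.33, SE 0.11, edgeR adjusted p = 0.020). The adult call was lost without adult replicate 2 (adjusted p 0.0729) and with only the 2 ages in the fit (0.060), within 0.00802 to 0.0729.

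Rarb (chromosome 15, 10120206 to 10262598), itself a target that retinoic acid induces in many cells, was the scarcest receptor. Its level was 8.42, 8.55 and 1.43 CPM in fetal replicates 1, 2 and 3, 9.96, 9.99 and 8.74 CPM in neonatal and 8.87, 6.79 and 7.11 CPM in adult libraries. Apart from fetal replicate 3, at 0.169 times the mean of the other fetal libraries, all lay between 6.79 and 9.99 CPM. No pair of ages was called with all libraries (edgeR adjusted p = 0.335 for neonatal against fetal, 0.608 for adult against fetal and 0.576 for adult against neonatal). Without fetal replicate 3 Rarb was lower in adult than in neonatal cultures (log2 -0.34, SE 0.13, edgeR adjusted p = 0.038, within 0.038 to 0.725 over the alternatives), and its difference between adult and fetal cultures changed sign, from log2 0.30 to -0.17, without passing.

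The Rarb promoter is the textbook site of a retinoic acid response element, a direct repeat of 6-base half-sites that a RAR and RXR pair binds. The half-site AGGTCA was searched, together with its variant AGTTCA, and so were the forms starting with a different base, that is GGGTCA along with the variant GGTTCA, all as direct repeats with 1, 2 or 5 bases between them, on both strands of RefSeq windows from 250 bases before to 50 after the annotated start (GRCr8). Of the 9 genes, each with a window, 1 held such a pair, and of 48 other retinoid pathway genes with a window 1 did. Among all 33469 windows 0.777% held a pair and 0.382% one with 5 bases between. Both sites are shown 5′ to 3′ in the direction of the half-sites (capitals), with 6 bases on either side.
Rarb: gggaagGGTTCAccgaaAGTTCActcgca
Cyp26a1: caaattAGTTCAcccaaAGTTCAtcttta
The Rarb repeat lies at chr15:11336416-11336432 on the plus strand, with its first base 24 bases after the annotated start. The Cyp26a1 repeat lies at chr1:244883730-244883746 on the minus strand, opposite to the gene, and extends from 92 bases before the annotated start towards it. Cyp26a1, another enzyme that removes retinoic acid, had 20, 28 and 3 counts in fetal replicates 1, 2 and 3, between 9 and 11 in neonatal and 1 to 5 in adult libraries, too few for the filter. Like Rarb it was lowest in replicate 3 among the fetal libraries, at 0.138 times the mean of the others. No match in the windows of the other genes says only that these letters are not in them.

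The binding proteins were higher in fetal than in neonatal cultures, by far more with fetal replicate 3 than without it. Crabp1 (chromosome 8, 59344097 to 59352135), which holds retinoic acid in the cytoplasm, had 21, 20 and 207 counts in fetal replicates 1, 2 and 3, 2, 1 and 0 counts in the neonatal and 2, 4 and 0 counts in the adult libraries. No library after birth held more than 4 counts. The ratio of fetal to neonatal counts per depth was 75.9 (95% exact interval 25.7 to 371, counting error only) and 18.3 without fetal replicate 3 (interval 5.8 to 92.3). For fetal to adult it was 27.7 (interval 12.6 to 76.3) and 6.68 without fetal replicate 3 (interval 2.82 to 19.2). Both falls were called by edgeR, with adjusted p = 0.0111 for neonatal and 0.0092 for adult against fetal cultures, and 0.00166 and 0.00401 without fetal replicate 3. DESeq2 gave no p for Crabp1.

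Crabp2 (chromosome 2, 187322416 to 187326762), which delivers retinoic acid to its receptors, stood at 1.67, 2.25 and 10.7 CPM in fetal, 0.550, 1.25 and 0.971 CPM in neonatal and 2.60, 1.59 and 1.80 CPM in adult libraries. The neonatal libraries lay below all others. It fell 5.17-fold from fetal to neonatal cultures (log2 -2.37, SE 0.71, edgeR adjusted p = 0.0297) and 2.10-fold without fetal replicate 3 (log2 -1.07, SE 0.36, adjusted p 0.0343). Dropping neonatal replicate 1, 2 or 3 ended the call (adjusted p 0.103, 0.0669 and 0.0858), as did a fit of only the 2 ages (0.0574), within 0.00201 to 0.103. Between adult and fetal cultures the difference was log2 -1.28 (SE 0.68, edgeR adjusted p = 0.118) with and 0.01 (SE 0.34, adjusted p 0.985) without fetal replicate 3, and it passed without fetal replicate 1 (log2 -1.70, adjusted p 0.0343), within 0.0343 to 0.985. Between adult and neonatal cultures it was log2 1.09 (SE 0.75, edgeR adjusted p = 0.229) and passed without fetal replicate 3 (log2 1.08, SE 0.34, adjusted p 0.0153) and with only the 2 ages in the fit (0.0221), within 0.0153 to 0.436.

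Cyp26b1 (chromosome 4, 116261796 to 116278615), which clears retinoic acid from cells, was lowest in neonatal and high in adult cultures. It stood at 4.86, 4.50 and 15.5 CPM in fetal, 2.20, 2.42 and 2.33 CPM in neonatal and 20.3, 18.1 and 9.51 CPM in adult libraries. Every neonatal library lay below every other one, and fetal replicate 3 fell within the adult range. From neonatal to adult cultures Cyp26b1 rose 6.87-fold (log2 2.78, SE 0.52, edgeR adjusted p = 0.00148), a call that held in each alternative that was run. From fetal to neonatal cultures it fell 3.56-fold (log2 -1.83, SE 0.52, edgeR adjusted p = 0.0244) and 2.01-fold without fetal replicate 3 (adjusted p 0.0309). This fall did not pass when neonatal replicate 1, 2 or 3 was dropped (adjusted p 0.0788, 0.0752 and 0.0751), within 0.000635 to 0.0788. Between adult and fetal cultures the difference was log2 0.95 (SE 0.47, edgeR adjusted p = 0.101) and, without fetal replicate 3, a rise of 3.41-fold (log2 1.77, SE 0.28, adjusted p 0.000276, within 0.000276 to 0.262).

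**Figure D3:**
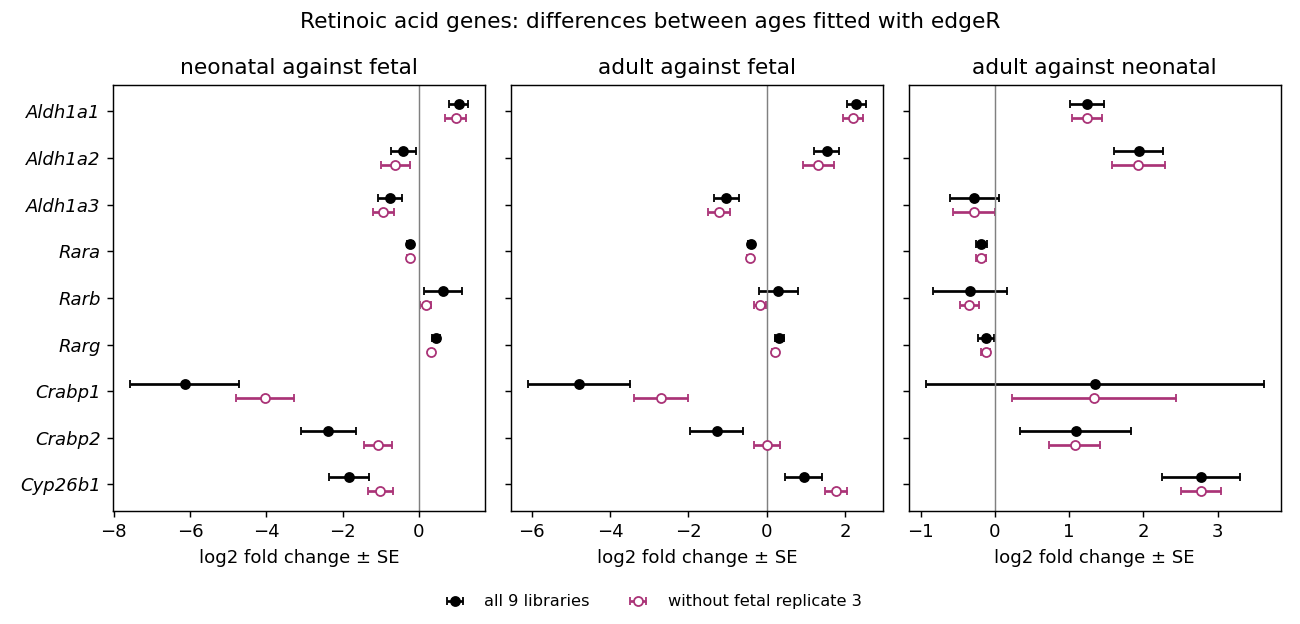
Log2 fold change with its SE (horizontal axes, which differ in range) for each of the 9 genes in the 3 pairs of ages, with all 9 libraries (filled) and without fetal replicate 3 (open). Values for Aldh1a1, Aldh1a2 and Rara are close in both fits, while Crabp1, Crabp2, Cyp26b1 and Rarb shift in the comparisons that use the fetal libraries.

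Fetal replicate 3 held a different set of retinoid transcripts from its group. Relative to the mean of fetal replicates 1 and 2 it had 10.9 times the Crabp1, 5.44 times the Crabp2, 3.32 times the Cyp26b1, 0.592 times the Aldh1a2 and 0.169 times the Rarb level, with Rara at 0.966 times. Among other pathway genes, singled out after their values were seen, Dhrs9 was at 4.47 times and Dhrs3 at 0.210 times that mean. The part of the lung epithelial markers of this library in these values was not tested.

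By level per length the first 3 places went to the same 3 genes at each age, and the order of the other 6 differed. Aldh1a2 was first at each age, followed by Rara and Rarg in fetal and by Rarg and Rara in neonatal and adult cultures, and these 3 did not overlap with their neighbours in the order. The other 6 were at or below 6.30 CPM per 1000 bases of exon on average. In adult cultures Cyp26b1 (3.51), Aldh1a1 (2.92), Aldh1a3 (2.62) and Crabp2 (2.58) each overlapped with the next in the order, which after Crabp2 was Rarb (2.46). Crabp1 (0.195) was last and lay below Rarb without overlap. By the mean of 3 libraries Crabp1 was 5th and Cyp26b1 8th in fetal cultures, against 9th and 4th in adult ones. The fetal place of Crabp1 rests on fetal replicate 3, where it stood at 14.6 and above Crabp2, Aldh1a3 and Rarb. In fetal replicates 1 and 2 it lay below each of these genes. By the fetal mean the order was Crabp2, Crabp1 and Aldh1a3. Crabp2 overlapped with Crabp1 and Crabp1 with Aldh1a3, whereas Aldh1a3 lay above Rarb, the next in the order, without overlap.

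Genes with the most similar profile were found by the root mean square difference of log2 CPM, centred for each gene, over the 9 libraries and 3 ages, among tested genes whose highest age averaged 10 CPM or more. Nearest to Aldh1a2 were Fgl2 (0.191) and Jund (0.205), to Aldh1a1 Tmem63a and Vat1 (both 0.170), and to Aldh1a3 Adamts1 (0.201) and Mme (0.215). Rara was closest to Furin (0.0388) and Scrib (0.0421), and Rarg to Rhbdf1 (0.0545) and Vps41 (0.0611). For Rarb they were Gdf6 (0.147) and Dhrs3 (0.255). Dhrs3, which reduces retinaldehyde back to retinol, stood at 31.7, 33.4 and 6.85 CPM in the fetal libraries and 30.9 to 53.6 CPM in the others. Cyp26b1 was nearest to Il33 (0.255) and Hpse (0.270), Crabp1 to Mylpf (0.619) and Fam167a (0.770), and Crabp2 to Eva1a (0.469) and Prrx2 (0.480). Among the fetal libraries the neighbours of these 3 genes were, like them, highest in replicate 3. Those of Rarb were, like it, lowest there (Gdf6 at 55.5, 46.6 and 11.7 CPM). How far these matches rest on that library was not tested.

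Beyond the 9 genes, lists of the retinoid pathway named 69 others, of which 59 were in the table and 39 were tested. Between neonatal and fetal cultures 11 were higher and 12 lower, between adult and fetal 10 and 19, and between adult and neonatal 9 and 18. The shares called were 59%, 74.4% and 69.2%, beside 36.3%, 70.5% and 63.5% of all genes tested, so those of the adult comparisons were near the share of all genes. Their median log2 differences were 0.05, -0.33 and -0.31, against -0.01, -0.01 and -0.01 for all genes tested.

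Of the uptake and storage genes 4 of 11 were tested, and 2, 3 and 3 were higher and 0 lower in the 3 pairs, beside 18.3%, 34.9% and 31.6% of all genes higher. Fabp5, a carrier that takes retinoic acid to other receptors, is not among these 4. It was the 1 gene tested on the list of other hydroxylases and carriers. Fabp5 was at 103, 94.7 and 201 CPM in fetal, 169 to 181 CPM in neonatal and 747 to 909 CPM in adult libraries. It rose by log2 2.64 from fetal to adult cultures (SE 0.27, edgeR adjusted p = 2.49e-05). Fabp5 is also abundant in macrophages, whose markers were higher in the same adult libraries, and their part in this rise was not tested.

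Of the listed oxidoreductases of retinol and retinaldehyde 11 were tested. In neonatal against fetal cultures 3 were higher and 3 lower, in adult against fetal 1 and 3, and in adult against neonatal 0 and 3. These are 54.5%, 36.4% and 27.3% of the 11, beside 36.3%, 70.5% and 63.5% of all genes. The shares called in the adult comparisons were thus below those of all genes. Retsat, named after its values were seen, was the 1 higher in adult than in fetal cultures (log2 0.53, edgeR adjusted p = 0.00145). Dhrs9, a retinol dehydrogenase of epithelia and myeloid cells, was at 16.5, 17.8 and 76.7 CPM in fetal and at or below 0.743 CPM in all other libraries. Its fall from fetal to adult cultures was log2 -6.81 (SE 0.85, edgeR adjusted p = 0.000101) and -5.70 without fetal replicate 3. Between adult and neonatal cultures it was called only without fetal replicate 3 (log2 -1.04, adjusted p 0.0244). Rdh10, the main retinol dehydrogenase of the embryo, singled out after its values were seen, stood at 4.49 ± 0.970, 3.90 ± 0.863 and 4.46 ± 1.65 CPM and was called in no pair.

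Among RXR partners and coregulators, 10 of which were tested, 3 were higher and 6 lower in adult than in fetal and likewise than in neonatal cultures, which is 90% of them in each case beside 70.5% and 63.5% of all genes. The 3 higher ones were Rxra, Rxrb and Hdac3, named after their values were seen. Rxra, a partner of the RAR proteins, went from 14.7 to 27.1 CPM between fetal and adult cultures (log2 0.88, edgeR adjusted p = 7.9e-06). Ncoa2, a coactivator, was at 26.1 to 32.6 CPM in the younger and 13.6 to 16.6 CPM in the adult libraries, and fell by log2 -1.02 from neonatal to adult cultures (SE 0.11, edgeR adjusted p = 4.11e-05).

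Textbook targets of retinoic acid did not move one way. Of 15 tested, 4 were higher and 8 lower in neonatal than in fetal, 3 higher and 10 lower in adult than in fetal, and 3 higher and 9 lower in adult than in neonatal cultures. Among all genes 18.3% were higher and 18% lower in the first pair, 34.9% and 35.5% in the second and 31.6% and 31.8% in the third. The median log2 difference of the targets was -0.48, -1.31 and -0.57, beside -0.01 for all genes in each pair. Rarres1 and Rarres2 were among those that rose from fetal to adult cultures. Rarres2, which encodes the chemoattractant chemerin, went from 5.83, 4.63 and 1.54 CPM in fetal to 25.8 to 26.2 CPM in neonatal and 225, 167 and 139 CPM in adult libraries (log2 5.46 for adult against fetal, SE 0.37, edgeR adjusted p = 2.38e-06). Rarres1 was at 1.38 to 1.72 CPM in fetal, 3.76 to 3.96 CPM in neonatal and 22.2 to 31.7 CPM in adult libraries (log2 4.01, SE 0.19, edgeR adjusted p = 1.40e-07).

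Homeobox and orphan receptor targets named here fell from fetal to adult cultures. The homeobox genes Meis1 and Meis2 fell by log2 -1.65 and -1.55, and the orphan nuclear receptors Nr2f1 and Nr2f2 by -1.31 and -1.06, between fetal and adult cultures. Tbx5, a heart and forelimb factor also made in lung mesenchyme, was at 11.7, 10.8 and 15.9 CPM in the fetal libraries, between 1.21 and 1.76 CPM in neonatal ones and between 0.225 and 0.433 CPM in adult ones (adult against fetal log2 -5.18, SE 0.30, edgeR adjusted p = 5.23e-07). Of 5 lung mesenchymal markers found, Tbx4 was at 38.5 to 53.2 CPM in the same fetal libraries and at most 5.05 CPM in the others. Meox2 also fell, with means of 2.74, 1.65 and 0.246 CPM in fetal, neonatal and adult cultures. Fgf10 went the other way (means 3.09, 9.07 and 12.9 CPM). Hhip was at 0.216, 0.264 and 3.29 CPM in fetal replicates 1, 2 and 3 and at most 0.153 CPM elsewhere. Nkx6-1 had at most 0.578 CPM in any library. The part of lung mesenchyme in the Tbx5 values was not tested.

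**Figure D4:**
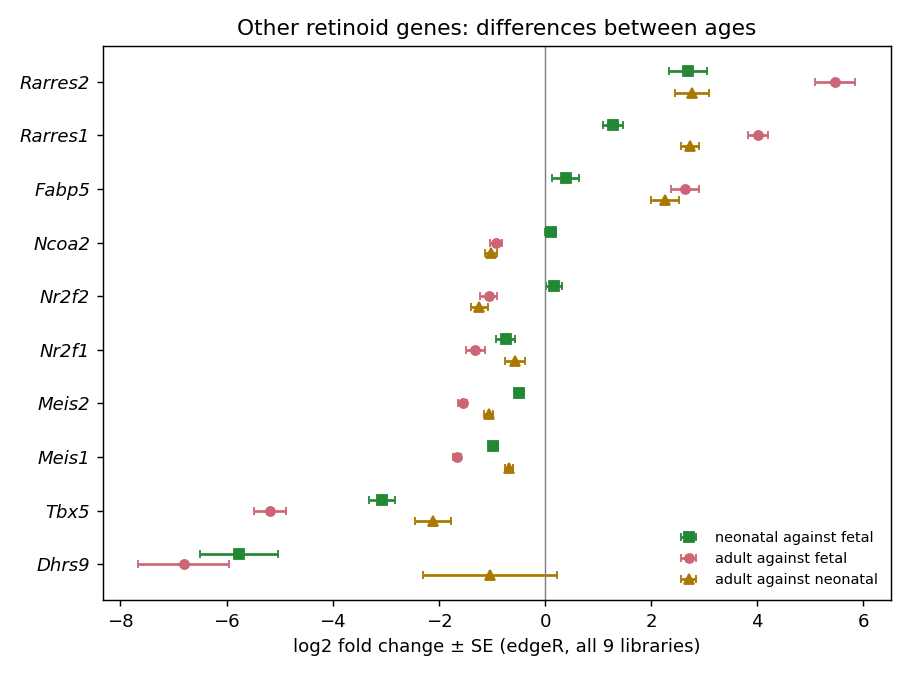
Log2 fold change with its SE (horizontal axis, all 9 libraries) of 10 other retinoid genes with a large called change, for the 3 pairs of ages. Rarres2, Rarres1 and Fabp5 lie to the right of 0 and Tbx5 and Dhrs9 to the left in both adult comparisons, though the adult against neonatal value of Dhrs9 did not pass.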

How the data were processed

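The authors deposited raw counts per gene for 9 libraries, made with featureCounts (Subread 1.6.3) on an rn6 annotation, per the file headers, with only annotation and output options given. The submitters' processing notes also name FastQC, Trimmomatic 0.39, STAR 2.5.2b and DESeq2. No strand or multi-mapping option appears in the recorded command. A deposited table of normalized signal values was used to check labels: in 9 of 9 libraries its values matched the counts of the library with the same label, up to 1 factor. Exon lengths came from the count table.

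Ages were compared with edgeR 4.0.16 in R 4.3.3 (filterByExpr, TMM, robust quasi-likelihood fit of all 9 libraries, age as the only term), with Benjamini-Hochberg adjustment over 11337 tested genes and a threshold of 0.05. SEs were derived from the fold change and F statistic. Log2 CPM, for the profile comparison, used a prior count of 2. No library pair of an age agreed within counting error (chi-square per degree of freedom 2.09 to 102). Analyses were tested on simulated counts. Members and lists were chosen with earlier results of these data known. Besides the 9 genes, listed pathway genes are named when called with a log2 change of at least 1 and at least 10 CPM in the higher age, as are the 2 most similar genes of each member. Some listed genes that met this rule are not reported here. Alternatives were DESeq2 1.42.0, its size factors, total counts, no filter, only the 2 ages compared, a replicate block, and each library left out. Intervals cover counting error only, since reads carry no molecular identifiers.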

Additional observations from a re-analysis of the deposited data

How the results depend on the processing

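Over 15 alternatives the log2 fold changes of the 9 genes kept direction and side of the threshold in 362 cases, lost a call in 22, gained one in 15 and changed sign in 2, both without fetal replicate 3 and neither called: Rarb and Crabp2 between adult and fetal cultures, which ran from -0.17 to 0.62 and from -1.70 (without fetal replicate 1, called) to 0.0077 over the libraries left out. Among the pathway genes with a large called change 531 cases kept both, and Ncoa2 between neonatal and fetal cultures, not called, changed sign to -0.064 with total counts as the scaling. That scaling moved the median of all genes by -0.17 for neonatal and -0.11 for adult against fetal cultures and changed the sign of none of the 9 genes. Leaving out 1 library, the number of the 9 genes called ran from 3 to 7 for neonatal against fetal (3 without any 1 neonatal library), 4 to 7 for adult against fetal (4 without adult replicate 2) and 3 to 6 for adult against neonatal cultures (6 without fetal replicate 3, 5 without adult replicate 1). With only the 2 ages in the fit the last was 5. The cause was not tested. Pathway calls ran from 16 to 27, 27 to 32 and 21 to 29, beside 23, 29 and 27.

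Same-numbered libraries of different ages did not deviate together (correlations from -0.06 to 0.05 over 9 pairs), so no pairing by replicate number was seen. Fetal replicate 3 stood far from replicates 1 and 2 (chi-square per degree of freedom 94.4 and 102, against 4.08 between those 2). A small shift shared by same-numbered libraries could therefore go unseen. With the replicate block 4, 6 and 3 of the 9 genes were called, against 6, 6 and 3; for neonatal against fetal cultures Rara (adjusted p 0.0587), Crabp2 (0.0525) and Cyp26b1 (0.0602) lost and Aldh1a3 (0.0444) gained the call. Crabp1 after birth, with 0 to 4 counts a library, is limited by depth.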
